A study of Mus musculus with 4 samples.

Results

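The genes described here are 32 type I interferon response genes, chosen by symbol from the 32285 genes of a single-cell RNA data set of mouse prostate tumors. Of these 32, 30 had a row in the files; Mx1 and Mx2 are not analysed here. The tumors carried Nkx3.1CreERT2, a tamoxifen-induced Cre driven from a prostate epithelial gene, together with floxed alleles common to both groups, Smad4 (Smad4L/L) among them, in the group named DKO, and with floxed Pygo2 (Pygo2L/L) as well in the group named TKO. The floxed Smad4 allele is therefore carried by both groups. Immune cells carry the alleles of their group, the Cre among them, but the Cre is driven from a prostate epithelial gene. Recombination in immune cells was not checked. There were 2 libraries per group. The series gives 10 and 17 weeks after tamoxifen as harvest times, and no label ties a library to either, so genotype and harvest time cannot be told apart. The labels do not give the number of animals behind a library, so the spread that p-values measure here may be technical.

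Type I interferons bind the receptor IFNAR on nearly all nucleated cells and, through JAK1 and TYK2, assemble a transcription factor that contains STAT2 and IRF9. That factor binds a short promoter element, the interferon-stimulated response element (ISRE), and switches on a broad antiviral program. The products sense foreign nucleic acid, block its translation, tag proteins with the ubiquitin-like ISG15, or trap budding virus, and IRF7 feeds back on interferon production itself. In tumors the same program appears without infection, and dendritic cells need it to prime T cells.

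The promoters of the members that lead the neutrophil and dendritic results were read from RefSeq on GRCm38.p6. Rsad2 (viperin, which makes a chain-terminating nucleotide) was the highest member in neutrophil-like cells. Bst2 (tetherin, which holds budding virions at the cell surface) had the smallest p among members in neutrophil-like cells and the highest level in dendritic-like cells. Ifi44 had the smallest p in dendritic-like cells. Each run below is the 250 bases before the annotated start, 5′ to 3′ on the gene's strand, which is the minus strand for all 3. Rsad2 lies at chr12:26456453-26456702, Bst2 at chr8:71537473-71537722 and Ifi44 at chr3:151749911-151750160. Capitals mark matches to the ISRE core, which is GAAA and GAAA parted by any 2 bases, on either strand, or to the gamma-activated element GAS, which is TTC and GAA parted by any 3 bases.
Rsad2: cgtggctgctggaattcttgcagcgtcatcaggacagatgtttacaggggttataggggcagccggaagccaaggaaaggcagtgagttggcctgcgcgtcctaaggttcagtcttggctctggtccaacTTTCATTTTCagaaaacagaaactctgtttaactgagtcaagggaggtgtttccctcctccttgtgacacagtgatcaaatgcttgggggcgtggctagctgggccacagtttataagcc
Bst2: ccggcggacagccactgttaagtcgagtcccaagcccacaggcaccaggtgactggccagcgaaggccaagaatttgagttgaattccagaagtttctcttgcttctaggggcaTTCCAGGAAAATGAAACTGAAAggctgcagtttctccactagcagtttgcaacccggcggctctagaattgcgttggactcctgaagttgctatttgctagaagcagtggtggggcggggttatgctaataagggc
Ifi44: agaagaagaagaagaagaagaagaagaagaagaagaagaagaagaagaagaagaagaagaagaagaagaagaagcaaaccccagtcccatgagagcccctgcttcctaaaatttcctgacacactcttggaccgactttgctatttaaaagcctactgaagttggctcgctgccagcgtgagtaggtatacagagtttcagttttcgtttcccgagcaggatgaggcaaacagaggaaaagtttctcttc
The Rsad2 window held 1 ISRE core, on the opposite strand, at positions -120 to -111 from the start. In Bst2, a GAS match at positions -136 to -128 ran into an ISRE core at positions -130 to -121, which overlapped a further core at positions -124 to -115. The Ifi44 window held neither motif, which says only that these letters are not in it. Isg15, the gene of the ubiquitin-like modifier, had 3 overlapping cores, GAAAAGGAAA, GAAACCGAAA and GAAACAGAAA, between positions -78 and -57. Over the full 300-base windows (250 before and 50 after the start), 14 of 24 members with a window held an ISRE core (58.3%), beside 1079 of 27025 genes (3.99%). A GAS match was present in 5 of 24 members (20.8%) and in 9.55% of genes. These are matches of letters, not measured binding.

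The libraries held 3508 barcodes, of which 3381 passed filters, with between 9167770 and 18360201 gene UMIs per library and 0 barcodes shared between libraries. In epithelial-like cells Pygo2 had 10 and 33 UMIs in DKO and 25 and 4 in TKO (9.09, 8.70, 16.0 and 7.24 CPM, the gene's UMIs per 1000000 gene UMIs of the class), so the targeted gene did not separate the groups. Smad4 stood at 73.6, 74.4, 53.7 and 70.6 CPM in the same cells and order. These counts are from 3′ ends and need not include the deleted exons, so they do not check the labels. The neutrophil-like class expressed its marker list (11 genes such as S100a8 and Csf3r) at 40669 to 57503 CPM. The dendritic-like class expressed its own (14 genes such as Flt3, Cd209a and class II genes) at 25465 to 27179. All 11 neutrophil markers and all 14 dendritic markers were detected in every library of their class.

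Neutrophil-like cells carried the highest summed level of the members on average over libraries. Their 30 genes together made up 3945 (replicate 1) and 9090.2 (replicate 2) CPM in DKO, against 6856 and 8782 in TKO. DKO replicate 1 was low and the other DKO library was the highest of the 4, so the groups overlapped. Epithelial-like cells came next, at 5402 and 4629 in DKO against 3329 and 9433 in TKO. TKO replicate 2, the highest of these, held only 26 such cells. Plasmacytoid dendritic-like cells reached 3439, 3128, 3587 and 4169 in the same order, from 5 to 17 cells a library. Most of that was Bst2, which is also a surface marker of these cells, at 2587, 2436, 2620.1 and 2925 CPM. Macrophage- and monocyte-like cells lay between 1487 and 2509, T- and NK-like cells between 993 and 1733, and fibroblast-like cells between 981 and 1250. Neighbouring classes in this order overlapped over the libraries, apart from the step from plasmacytoid to macrophage- and monocyte-like cells. Among classes too small to test, plasmacytoid sums were higher in both TKO libraries. B- and plasma-like sums were lower in both, at 735 and 695 in DKO against 541 and 438 in TKO (9 to 22 cells). Dendritic-like cells were the only tested class in which the groups did not overlap in this sum, with 1315 and 1327 in DKO against 2257 and 2072 in TKO, a ratio of 1.64. With the cell of most member UMIs left out of each library they were at 837 and 1109 against 2093 and 1952. Macrophage- and monocyte-like cells then did not overlap either, at 1092 and 1415 in DKO against 2161 and 2209.6 in TKO. Leaving out cells was chosen after the data were seen.

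**Figure D1:**
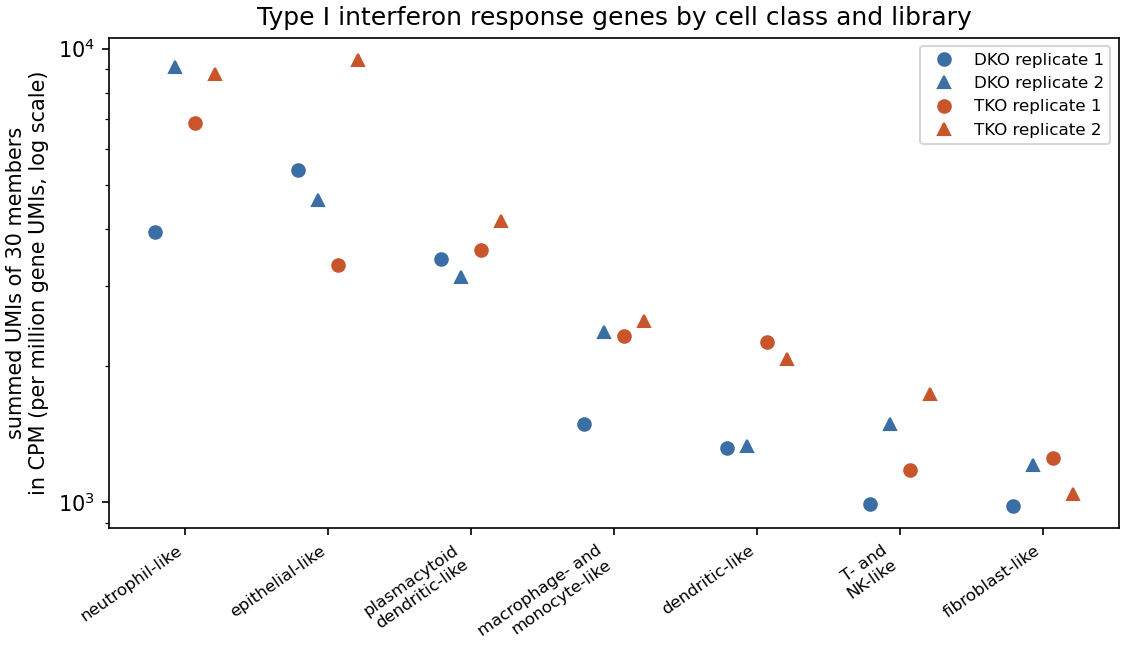
Summed level of the 30 members in CPM (log axis) in 7 cell classes, with 1 point per library. Neutrophil-like cells lie between 3945 and 9090.2 with the groups interleaved, while in dendritic-like cells both TKO points (2072 and 2257) lie above both DKO points (1315 and 1327).

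Single neutrophil-like cells fell into a low majority and a long upper tail. Each cell was thinned to 2000 UMIs, and a cell was called high when 10 or more of these came from the members. By that measure 17.4% and 35.9% of neutrophil-like cells were high in DKO (replicates 1 and 2, the order kept throughout), against 26.5% and 32.3% in TKO. The exact 95% binomial intervals, which cover counting error only, were 13.4% to 21.9%, 30.3% to 41.9%, 22.7% to 30.6% and 26.8% to 38.3%. DKO replicate 1 was the low library again, and the 2 DKO libraries lay on either side of both TKO libraries. Means were 26.7% ± 13.1 in DKO and 29.4% ± 4.13 in TKO (SD, n = 2 each; exact two-sided permutation test over libraries p = 1, where 0.333 is the smallest p this design allows). Without thinning, the shares with 0.5% or more of their UMIs from members were 18.6%, 34.1%, 25.8% and 31.0% in the same order.

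**Figure D2:**
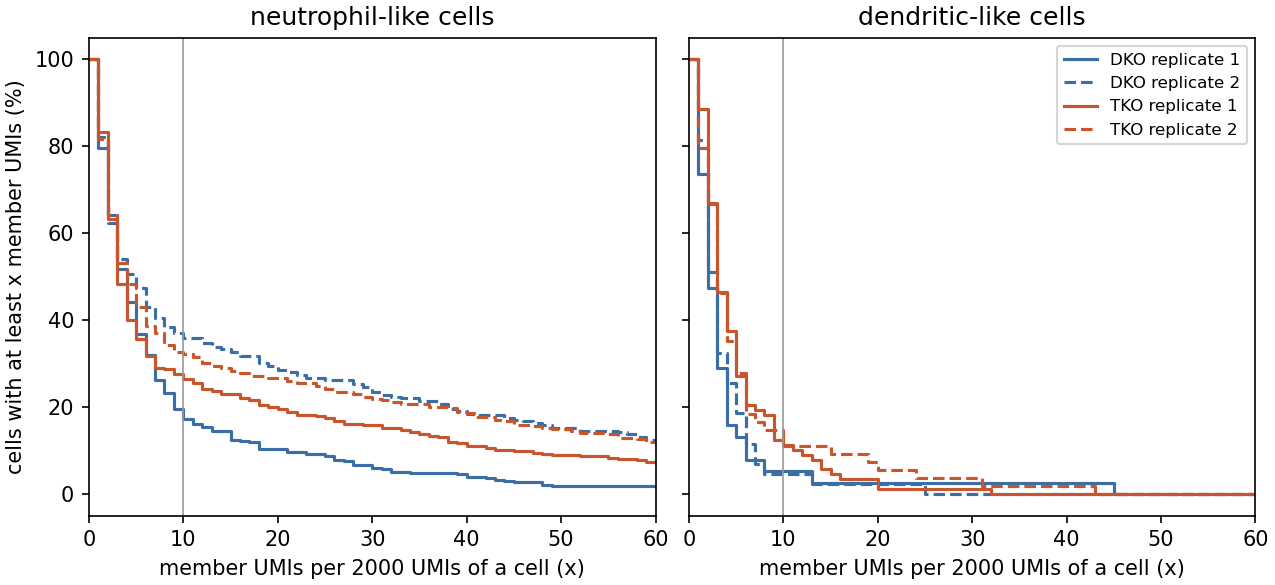
Percent of cells (vertical axis) with at least x member UMIs after thinning each cell to 2000 UMIs (horizontal axis), for neutrophil-like and dendritic-like cells, 1 line per library; the grey line marks 10 UMIs. At that line neutrophil-like shares run from 17.4% to 35.9% with a long tail, and dendritic-like shares from 4.65% to 11.4%.

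The level reached inside high neutrophil-like cells overlapped between genotypes. Their members summed to 16466 and 24499 in DKO against 23197 and 26211 CPM in TKO, against 1364, 1127, 1048 and 1136 in the other neutrophil-like cells. The cut used these genes, so the gap is a description. Median depth did not separate the 2 kinds of cell, at 7492, 6539, 6811 and 5952 UMIs per high cell and 7174, 6757, 7116 and 6436 per other cell. Of the 30 members, 29 were higher in high cells in all 4 libraries. The exception was Ifi44, whose mean was 0.84 CPM in high cells and 1.10 in the others.

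Members differed in the size of the gap between high and other cells. Rsad2 averaged 4660.2 CPM in high cells (2320.2 to 6494 over libraries) and 35.8 in the others (25.9 to 53.6). Ifit2, an RNA-binding inhibitor of translation, averaged 509 against 1.95, and Herc6, the main ISG15 ligase of the mouse, 938 against 15.2. The gap was narrower for 3 others. Isg15 averaged 3759 against 273, Trim30a (a TRIM-family regulator of inflammatory signalling) 1372 against 145, and Bst2 277 against 47.8. Of 29 further interferon-induced genes that are not members, 25 were higher in high cells in all 4 libraries, as were 13 of 19 genes induced by interferon gamma. These lists did not enter the cut. The share of all genes higher in high cells in all 4 libraries was not counted, so these counts are a description. The chemokine Cxcl10, on the gamma list although both interferon types induce it, averaged 2627 against 63.0.

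**Figure D3:**
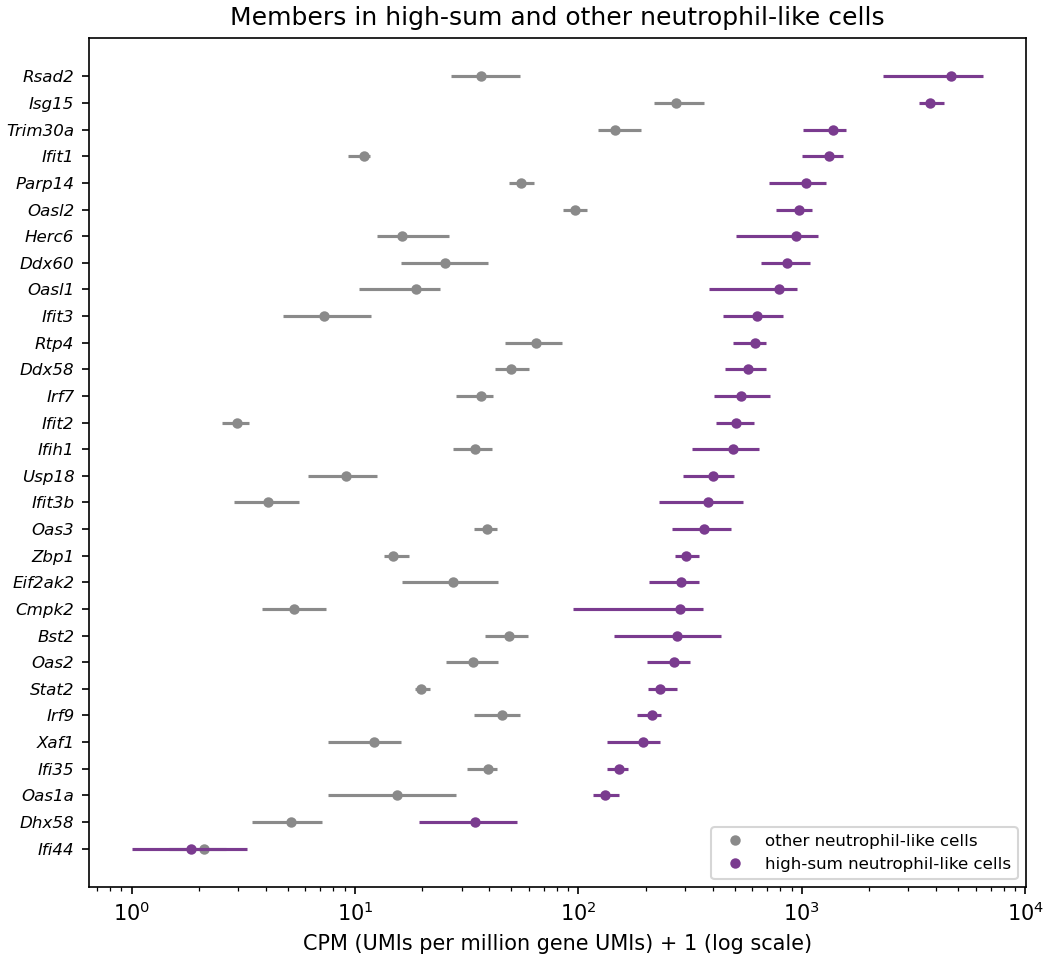
CPM plus 1 (log axis) of each member in high and in other neutrophil-like cells; points are means of 4 libraries and bars run from the lowest to the highest library. Rsad2 (4660.2 against 35.8) and Ifit2 (509 against 1.95) show wide gaps, and Ifi44 (0.84 against 1.10) shows none.

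High cells were spread unevenly over the neutrophil clusters. These had been built with the members left out of the clustering genes, but other interferon-induced genes such as Cxcl10 were not left out. One cluster, led by Rsad2, Cxcl10 and Ifit2, was almost wholly high (95.7% to 100% of its cells by library). It made up 6.80% and 20.3% of the class in DKO and 16.2% and 19.2% in TKO, with a summed level of 25004, 32638, 32476 and 34925 CPM. A cluster led by Gpnmb held 21.2% and 66.7% high cells in DKO and 28.6% and 50% in TKO. The largest cluster held 3.64% to 5.26%. DKO replicate 1 was the library with the smallest share of the interferon-high cluster, and the other 3 libraries lay close together.

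Between genotypes, no member passed in neutrophil-like cells. edgeR's quasi-likelihood test with Benjamini-Hochberg adjustment over 9095 genes called 0 of 29 tested members, beside 0.011% of all genes. DESeq2 also called 0 members. At an unadjusted p under 0.05 there were 2 members higher in TKO and 0 lower, where 1.94% of all genes were higher and 2.11% lower. Both TKO libraries lay above both DKO libraries for 9 of 29 members (18.6% of all genes) and below them for 1 (10.4%). The members' median log2 change, TKO minus DKO, was 0.24, beside 0.01 over all genes.

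Bst2 was measured at 86.7 and 76.2 in DKO against 155 and 113 CPM in TKO. Both TKO libraries were above both DKO libraries, and the log2 change was 0.66 ± 0.23 (standard error, as after every log2 change here; edgeR unadjusted p = 0.023, adjusted p = 0.999). Ifit3, whose near-identical neighbour Ifit3b can share its reads, was at 84.4 and 158 in DKO and 214 and 256 in TKO, again without overlap (log2 change 0.87 ± 0.37). Ifit3b was at 40.4 and 96.7 in DKO and 145 and 145 in TKO (1.00 ± 0.43).
Irf7, the factor that amplifies interferon production, was at 101 and 164 in DKO and 187 and 240 in TKO (0.61 ± 0.34). Oas2, which makes the RNase L activator 2-5A, was at 57.9 and 97.7 against 112 and 121 (0.51 ± 0.32), and Ifit2 at 80.1 and 141 against 163 and 171 (0.51 ± 0.34). For Irf7, Oas2 and Ifit2 the TKO libraries were both higher, DKO replicate 1 was the lowest, and the adjusted p was 0.999 in edgeR.

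The 4 most abundant members did not separate the groups. Rsad2 was at 417 and 2233 in DKO against 1160 and 1716 CPM in TKO (log2 change 0.01 ± 0.73). Isg15 was at 920.0 and 1324 in DKO and 1154 and 1469 in TKO (0.16 ± 0.31). Trim30a was at 330 and 591 against 458 and 580 (0.10 ± 0.36), and Ifit1, another RNA-binding member, at 180 and 492 against 361 and 472 (0.22 ± 0.50). In all 4 the DKO libraries lay on either side of at least 1 TKO library. Without DKO replicate 1 these changes turned to -0.77, -0.15, -0.32 and -0.38, and without TKO replicate 2 to -0.41, -0.13, -0.18 and -0.09.
Without DKO replicate 2, the log2 ratio of the summed level was 0.99 in place of 0.26. The sign for Rsad2, Isg15, Trim30a and Ifit1 thus depended on which library was left out.

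In dendritic-like cells the members lay higher in TKO, without passing one by one. There were 38 and 43 such cells in DKO and 88 and 55 in TKO, with medians of 27278 to 31804 UMIs per cell. edgeR called 0 of 28 tested members after adjustment over 8475 genes, beside 0.0354% of all genes, and DESeq2 called 0, with no adjusted p for Ifi44. Without the filter on low counts edgeR called 9 members, among 236 of 17415 genes called. At an unadjusted p under 0.05, 12 of 28 members were higher in TKO and 0 lower, where 3.47% of all genes were higher and 3.33% lower. The members were chosen with earlier results of these data known and belong to 1 program, so they are not 28 separate observations. Counts of members beside shares of all genes are therefore a description, in every class. Both TKO libraries lay above both DKO libraries for 18 of 28 members (15.6% of all genes) and below them for 0 (21.6%). The members' median log2 change was 0.68 and that of all genes 0.00. The count of 12 ran from 10 to 15 when single libraries were left out, and was 10 in DESeq2.
Single cells carried much of some members, so each class was also tested with the cell holding most of a gene's UMIs left out of each library, for every gene alike, a choice made after seeing the data. DKO had fewer dendritic-like and fewer macrophage- and monocyte-like cells, so there 1 cell is a larger share of a DKO library. Leaving it out takes more from DKO in these classes. In dendritic-like cells 0 of 28 members then passed in edgeR, and 19 were higher and 0 lower at an unadjusted p under 0.05, where 3.66% of all genes were higher and 3.06% lower. The TKO libraries were both above the DKO libraries for 24 members. The share of all genes in that order was not counted in this setting. Shares at an unadjusted p under 0.05 were not counted for DESeq2 or for the fits without 1 library.

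Among the transcription factors, Irf7 stood at 80.0 and 65.9 in DKO against 121 and 171 CPM in TKO. Both TKO libraries were above both DKO libraries (log2 change 1.06 ± 0.24; edgeR unadjusted p = 0.0020, adjusted p = 0.29). Stat2 and Irf9, subunits of the interferon-activated complex, were also above in both TKO libraries, with changes of 0.40 ± 0.22 and 0.44 ± 0.23.

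In the ISG15 system, Isg15 was at 189 and 230 in DKO against 437 and 307 CPM in TKO, with no overlap (log2 change 0.87 ± 0.21; edgeR adjusted p = 0.31). In DKO 1 cell gave 153 of the 203 Isg15 UMIs of replicate 1 and another 118 of the 304 of replicate 2. With the highest cell of each library left out Isg15 was at 47.9 and 144 in DKO against 379 and 277 CPM in TKO, so the order stayed and the DKO libraries lay further apart. Usp18, which strips ISG15 from proteins and damps the interferon receptor, was at 12.1 and 6.06 in DKO and 33.0 and 25.2 in TKO (1.76 ± 0.39; edgeR adjusted p = 0.29). In DKO replicate 1 a single cell gave 11 of the 13 Usp18 UMIs. These UMIs came from 3 of 38 and 6 of 43 cells in DKO and from 28 of 88 and 17 of 55 in TKO. Herc6 overlapped between the groups.

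Of the 5 nucleic acid sensors, Zbp1, which binds Z-form RNA and DNA, was at 46.5 and 49.3 in DKO against 87.3 and 94.5 CPM in TKO. The groups were apart by far more than the spread within either (log2 change 0.97 ± 0.21; edgeR unadjusted p = 0.0014, adjusted p = 0.24). Ddx58, the RNA sensor RIG-I, was the other member of this group whose libraries did not overlap (0.82 ± 0.33). Ifih1, Dhx58 and Ddx60 overlapped, with changes of 0.36 to 0.39.

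All 5 OAS family changes were above 0 (0.52 to 1.73), as were 4261 of 8475 over all genes; 0 of the 5 passed in edgeR and 2 had an unadjusted p under 0.05. Oasl1, which is known to limit Irf7 translation, had 18.6 and 15.2 in DKO against 28.6 and 80.6 CPM in TKO (1.73 ± 0.55), and Oas3 had 4.65 and 12.1 in DKO and 18.7 and 23.3 in TKO (1.31 ± 0.47). The largest value was that of TKO replicate 2 in both. In the IFIT family 3 members were tested, with 1 change above 0 and 2 below (-0.18 to 0.49). Ifit2 was at 51.1 and 4.55 in DKO and 18.3 and 27.7 in TKO, and Ifit3 at 49.3 and 4.55 against 32.2 and 16.4. DKO replicate 1 was the highest library for both, and there 50 of the 55 Ifit2 UMIs came from 1 cell, as did 47 of the 53 Ifit3 UMIs. Without the highest cell of each library, Ifit2 and Ifit3 were above in both TKO libraries.

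Bst2 was the highest member of the class, at 227 and 252 in DKO against 374 and 421 CPM in TKO. It was found in 35 of 38 and 41 of 43 DKO cells and in 83 of 88 and 53 of 55 TKO cells, so the higher TKO level was one of amount rather than of cells with a UMI (log2 change 0.78 ± 0.16; edgeR unadjusted p = 0.0014, adjusted p = 0.24). Rsad2, which led in neutrophil-like cells, was at only 22.3 and 14.4 in DKO and 23.4 and 22.0 in TKO. Trim30a was at 104 and 121 in DKO and 191 and 185 in TKO (0.79 ± 0.18), and this gap exceeded the spread in either group. Parp14, Ifi35, Xaf1 and Rtp4 were above in both TKO libraries as well.

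Ifi44, an interferon-induced protein of uncertain role, had 0 and 1 UMIs in DKO but 32 and 29 in TKO (0, 0.76, 12.7 and 18.3 CPM). Its fitted log2 change was 5.01 ± 0.82 (edgeR adjusted p = 0.16), and the change depends on the prior count because DKO is near 0. The standard error was worked back from that change, so it is no measure of the counting error at 0 and 1 UMIs. The UMIs came from 0 of 38 and 1 of 43 cells in DKO and from 9 of 88 and 10 of 55 in TKO. In neutrophil-like cells, at a median depth of 6133 to 7172 UMIs, a UMI was present in 2 of 338, 1 of 290, 4 of 512 and 3 of 281 cells. Among the fits that left out a library, it passed without DKO replicate 2 and in no other. The gene was at its highest outside these classes, in epithelial-like cells, where 21 of 34, 47 of 88, 16 of 52 and 10 of 26 cells had a UMI.

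**Figure D4:**
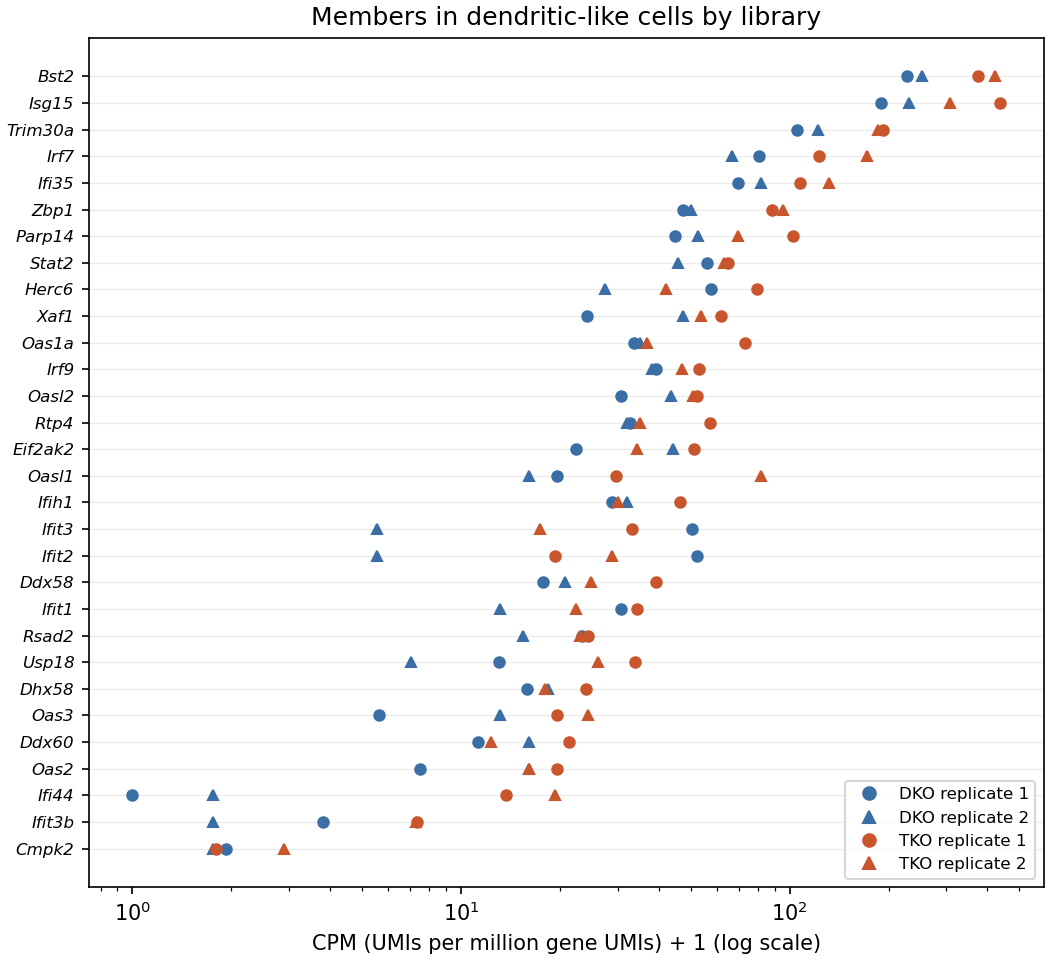
CPM plus 1 (log axis) of the 30 members in dendritic-like cells, 1 point per library. Both TKO points lie to the right of both DKO points for Bst2, Isg15, Trim30a, Irf7, Zbp1, Usp18 and Ifi44, while Ifit2 and Ifit3 are highest in DKO replicate 1.

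High cells were few among dendritic-like cells, at 2 of 38 and 2 of 43 in DKO (5.26% and 4.65%) and 10 of 88 and 6 of 54 in TKO (11.4% and 11.1%). The TKO shares were both higher, by 6.28 points on average, and the exact permutation p was 0.333, the smallest possible. The exact 95% intervals overlapped widely, from 0.568% to 17.7% in DKO and from 4.19% to 22.6% in TKO. The step depended on the threshold: it was 11.6 points at 5 UMIs and 0.87 points at 20 UMIs. Fibroblast-like shares were also apart, at 0 of 29 and 1 of 41 in DKO against 3 of 57 and 1 of 29 in TKO. The shares of the remaining tested classes overlapped. At 5 UMIs macrophage- and monocyte-like shares were apart, at 20% and 25% in DKO against 39.4% and 40.5% in TKO. So were T- and NK-like shares, while neutrophil-, epithelial- and fibroblast-like shares overlapped.
The cells below the threshold also differed, with members at 715 and 1030 in DKO against 1453 and 1580 CPM in TKO. Within the Cd209a cluster, which held 83.0% to 88.4% of the class, the summed level was 1454 and 1289 in DKO and 2361 and 2220.0 in TKO. In the smaller cluster with Ccr7 and Fscn1, markers of migratory dendritic cells, it was 524 and 1678 in DKO and 1636 and 1025 in TKO, which overlapped in 5 to 15 cells a library. The threshold used these genes, so the cells below it are described, with no test.

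Of 10 marker lists of other cells, 2 were above in both TKO libraries of the dendritic-like class, 2 were below and 6 overlapped. Those above were the fibroblast markers, at 213 and 205 in DKO against 304 and 220.4 CPM in TKO with 0 of 8 at 0, and the B and plasma cell markers, at 59.5 and 52.3 against 67.5 and 86.9 with 1 to 4 of 8 at 0. In the same class the 11 neutrophil markers summed to 1260.0 and 877 in DKO against 911 and 515 CPM in TKO, with 0 to 1 of them at 0. The 8 plasmacytoid markers summed to 504 and 446 in DKO and 389 and 297 in TKO, with 1 to 2 at 0. The first list overlapped between the groups and the second was lower in TKO. Monocyte markers summed to 1601 to 1690.0, with the groups interleaved. In the high dendritic-like cells they were at 4487, 4571, 3308 and 3937 CPM (DKO, then TKO), against 1447, 1559, 1375 and 1522 in the others, higher in every library. The part of the fibroblast, B cell and monocyte markers in the members' levels was not tested. When plasmacytoid cells were put into the class, 14 members were higher at an unadjusted edgeR p under 0.05. The share of all genes at that threshold was not counted for this fit. In it 0 members passed in edgeR, beside 3 of 9074 genes.

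In macrophage- and monocyte-like cells members lay on both sides of 0, and 3 of the lower ones rested largely on single DKO cells. edgeR called 0 of 28 tested members over 7585 genes (0.0264% of all genes). DESeq2 called 2, Rsad2 and Ifit1, both lower in TKO, among 38 of 7585 genes called. Without the filter on low counts edgeR called 5 (Rsad2, Ifit1, Cmpk2, Ifih1 and Isg15), among 205 of 16775 genes called. At an unadjusted p under 0.05, 6 members were higher in TKO (3.48% of all genes) and 3 lower (3.64%). Both TKO libraries lay above both DKO libraries for 11 of 28 members (22.5% of all genes) and below them for 5 (15.3%). Left-out libraries moved these counts: 3 were higher and 5 lower without DKO replicate 1, and 1 was lower without TKO replicate 1. With the highest cell of each gene left out of each library, 0 of 24 members passed in edgeR, and 10 were higher and 0 lower at an unadjusted p under 0.05 (3.93% and 4.03% of all genes). Both TKO libraries then lay above for 17 members and below for 0; the classes held 35 and 32 such cells in DKO and 71 and 42 in TKO.

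Rsad2 was at 171 and 214 in DKO against 41.6 and 81.4 CPM in TKO, with both TKO libraries below (log2 change -1.76 ± 0.34; edgeR unadjusted p = 0.00094, adjusted p = 0.30). One cell gave 142 of the 179 Rsad2 UMIs of DKO replicate 1, and another 151 of the 173 of DKO replicate 2. Without the highest cell of each library Rsad2 was at 37.1 and 29.6 in DKO against 37.5 and 29.4 CPM in TKO, and the groups overlapped (-0.06 ± 0.34; edgeR adjusted p = 0.98). Cmpk2, a nucleotide kinase gene that lies beside Rsad2 on chromosome 12, and Ifit1 were the other members lower at an unadjusted p under 0.05, at -2.17 ± 0.65 and -2.95 ± 0.76. Single cells gave 25 of 27 and 16 of 19 Cmpk2 UMIs in DKO, and 32 of 37 and 109 of 121 Ifit1 UMIs. Without these cells both genes overlapped between the groups. On the other side, Ifih1 (the RNA sensor MDA5) was at 46.7 and 75.4 in DKO and 136 and 160.0 in TKO (1.22 ± 0.29; edgeR adjusted p = 0.38). In TKO replicate 1 a single cell gave 161 of the 261 Ifih1 UMIs, and without the highest cells Ifih1 overlapped, at 37.1 and 56.6 against 53.4 and 131 (0.90 ± 0.49). Oas1a, which has near-identical copies that can share its reads, was at 42.9 and 53.2 in DKO and 94.7 and 103 in TKO (0.98 ± 0.26). Isg15, Oas2, Ifi35 and Zbp1 were the remaining members higher at that threshold, at 0.69 to 1.28. Without the highest cells Oas1a (39.9 and 40.4 in DKO, 92.3 and 92.6 in TKO) and Isg15 (89.3 and 136 in DKO, 286 and 300.1 in TKO) were still above in both TKO libraries. Macrophage markers in the class were also lower in TKO, at 17503 and 21063 CPM in DKO against 14317 and 6798, with 0 of 11 at 0; their part in these differences was not tested.

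The genotype change was then compared between dendritic-like and neutrophil-like cells in a single edgeR fit. It called 0 of 30 members over 10101 genes (0.0% of all genes), so no member was shown to differ between the classes. At an unadjusted p under 0.05, 3 members had a larger change in dendritic-like cells and 0 a smaller one (2.09% and 1.73% of all genes). They were Oas3 (difference of changes 1.17 ± 0.43), Oas1a (0.99 ± 0.42) and Ifi44 (3.99 ± 1.68). The median difference over the members was 0.43 in log2. Leaving out DKO replicate 1 brought 2 calls (Oasl1 and Usp18), and leaving out DKO replicate 2 brought 2 others (Ifit2 and Ifit3).

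The remaining tested classes showed fewer differences. In T- and NK-like cells 0 of 30 members passed in edgeR (0.036% of all genes) or DESeq2, 1 was higher at an unadjusted p under 0.05 (2.57%) and 0 lower (2.88%). Both TKO libraries lay above both DKO libraries for 8 members (18.0% of all genes) and below for 1 (16.7%). Oas1a was at 7.64 and 12.3 in DKO against 18.5 and 21.0 CPM in TKO (0.88 ± 0.30). Eif2ak2, the kinase PKR that stops translation, was at 26.0 and 35.9 against 38.8 and 56.3 (0.57 ± 0.25), and Oas3 at 7.64 and 12.9 against 13.8 and 21.8 (0.68 ± 0.35). All 3 were above in both TKO libraries.

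In epithelial-like cells, the class that the Cre is meant to act in, 0 of 30 members passed in edgeR (0.0% of all genes) or DESeq2. At an unadjusted p under 0.05, 0 were higher (3.44%) and 1 lower (2.4%). Both TKO libraries lay above both DKO libraries for 1 member (16.5%) and below for 2 (20.6%). Irf7 was at 492 and 359 in DKO against 255 and 268 CPM in TKO (-0.71 ± 0.28), and Zbp1 at 105 and 107 against 65.8 and 83.2 (-0.52 ± 0.22), both below in TKO. Oasl1 was at 312 and 242 against 164 and 244, which overlapped. The summed level reached its ratio through TKO replicate 2. Without that library its log2 ratio was -0.59. With the highest cell of each gene left out of each library, 0 members passed in edgeR. At an unadjusted p under 0.05, 0 were then higher and 3 lower. Both TKO libraries lay above for 1 member and below for 8. The shares of all genes were not counted for this class in that setting.

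In fibroblast-like cells 0 of 28 members passed in edgeR (0.0% of all genes) or DESeq2, with 0 at an unadjusted p under 0.05 in either direction (1.56% higher and 2.21% lower over all genes). Both TKO libraries lay above both DKO libraries for 4 members (16.0%) and below for 3 (15.9%). Ifit2 was at 5.11 and 6.39 in DKO against 8.93 and 11.7 CPM in TKO, Ifit3b at 0 and 8.10 against 12.3 and 12.4, and Rtp4, a chaperone of receptors, at 39.0 and 35.8 against 30.9 and 25.5. The first 2 were above in both TKO libraries and Rtp4 below, and all 3 overlapped once the highest cell of each library was left out.

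The rest of the pathway was read from lists of ligands, receptors with their signalling genes, sensors, further interferon-induced genes and interferon gamma targets. These lists too were chosen with earlier results of these data known, so counts over them are a description. Ligands were scarcely sampled. Over 20 interferon genes, neutrophil-like cells held 1 UMI of Ifnb1 and 2 of Ifng in all 4 libraries, and dendritic-like cells 1 of Ifnk and 4 of Ifng. Only Ifng, in T- and NK-like cells, was abundant enough to test (42.0 and 14.4 in DKO against 16.4 and 33.2 CPM in TKO). A count of 0 or 1 here says only that the transcripts were not detectable at this depth.

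Of 16 tested receptor and signalling genes in dendritic-like cells 0 passed in edgeR, 1 was higher at an unadjusted p under 0.05, and the median log2 change was 0.06. Ifnar1, a chain of the type I receptor, was at 130.2 and 118 in DKO against 141 and 122 CPM in TKO, which is within the spread of the libraries. Ptpn6, a phosphatase that opposes JAK signalling, was at 112 and 77.3 in DKO and 139 and 120 in TKO (0.51 ± 0.21), and Tyk2 at 33.5 and 22.7 against 34.1 and 46.6.
Among 12 tested sensors 0 passed and the median was 0.19; Tlr4, the endotoxin receptor, was at 17.7 and 8.34 in DKO and 1.19 and 3.78 in TKO (-2.40 ± 0.69; edgeR adjusted p = 0.43), and Ikbke at 5.58 and 2.27 against 9.93 and 6.93. Ikbke overlapped without the highest cell of each library (2.91 and 0.78 against 6.46 and 2.57).

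Of 26 further interferon-induced genes tested in dendritic-like cells, 0 passed in edgeR, 11 were higher and 0 lower at an unadjusted p under 0.05 (3.47% and 3.33% of all genes), and the median log2 change was 0.47. Phf11b was at 67.0 and 95.5 in DKO against 145 and 159 CPM in TKO (0.94 ± 0.23), and Sp100, a nuclear body protein, at 139 and 170 against 241 and 239 (0.69 ± 0.18). Of 12 tested gamma targets, 3 were higher at that threshold, among them the immunoproteasome subunit Psmb9 (190 and 221 against 260.0 and 393) and Cxcl10 (55.8 and 35.6 against 92.1 and 61.1). The TKO libraries were both higher for all 4 genes. Without the highest cells Cxcl10 overlapped (33.3 and 25.8 against 49.7 and 18.4) and the other 3 did not.

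In macrophage- and monocyte-like cells 10 of 27 further interferon-induced genes were higher and 1 lower at an unadjusted p under 0.05 (3.48% and 3.64% of all genes), with 0 passing in edgeR. Ifitm3, which blocks viral entry, was at 1332 and 1574 in DKO against 2887 and 3366 CPM in TKO (1.05 ± 0.18; edgeR adjusted p = 0.26). Ms4a4c, a membrane protein of myeloid cells, was at 125 and 174 against 385 and 453 (1.43 ± 0.25). At clustering resolution 2, a cluster with monocyte markers held 17 and 18 cells of this class in DKO and 54 and 38 in TKO. A cluster led by C1qa held 17 and 14 in DKO and 17 and 4 in TKO. The part of this cell mix in the levels was not tested. Of 12 gamma targets, 1 was higher and 3 lower, among them the GTPase Gbp5 (64.8 and 58.1 in DKO, 8.84 and 22.9 in TKO) and Cd274, which encodes PD-L1 (204 and 146 against 91.1 and 68.6). In DKO replicate 2 a single cell gave 39 of the 47 Gbp5 UMIs, and without the highest cells Gbp5 overlapped and Cd274 stayed lower in both TKO libraries.
In neutrophil-like cells the same 2 lists had medians of 0.12 and 0.35, with 0 and 0 higher and 1 and 0 lower at an unadjusted p under 0.05.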

How the data were processed

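The files hold raw UMI counts per gene and cell, whole numbers that the authors deposited without normalization, made per the labels' protocols with the 10x 3′ v3.1 kit from hashtagged cells in 1 load. Cell Ranger 7.0.0, STAR and mm10 are named in the submitters' processing notes. Cells were kept from 200 genes upward and up to 20% of UMIs from mitochondrial genes, and clustered (scanpy 1.11.5, Leiden resolution 1) without the members among the 2000 variable genes. Clusters were named from marker lists, by a rule set after the data were seen: most markers raised, with at least 3 and 50% of the list. Unnamed clusters went into no test, and no doublet caller was run. UMIs summed per library and class were tested over all genes with edgeR 4.0.16 (quasi-likelihood, TMM, filterByExpr, threshold 0.05), in classes with at least 20 cells in every library. Standard errors were worked back from each fit, as the absolute log2 change over the square root of the test's F statistic. DESeq2 1.42.0 and the other alternatives stand in the closing section. Promoters and annotation were those of GRCm38. In neutrophil- and dendritic-like cells, the named members are the 6 with the smallest p and the 4 highest; elsewhere they are the 3 with the smallest p, and 2 per pathway list. Further members were named after their values were seen. The members and lists were chosen with earlier results of these data known. The tests were checked on simulated counts. One item of the genotype shared by both groups is not reported here.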

Additional observations from a re-analysis of the deposited data

Results flagged for a closer look

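Several members had both TKO libraries above both DKO libraries in one class and below them in another. In single classes 15.6% to 22.5% of all genes lay wholly above and 10.4% to 21.6% wholly below. The share of all genes with opposite orders in different classes was not counted, so these members are a description. None of these differences between classes was tested except dendritic- against neutrophil-like cells, where 0 members passed in edgeR, and all classes come from the same 4 libraries. Values below are the log2 change (TKO minus DKO) in the second class minus that in the first.

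Oas1a was lower in TKO in neutrophil- and fibroblast-like cells and higher in 3 other classes. From neutrophil-like cells the difference was 0.999 to dendritic-like, 1.22 to macrophage- and monocyte-like and 1.12 to T- and NK-like cells. To fibroblast-like cells it was -1.02 from dendritic-like, -1.24 from macrophage- and monocyte-like and -1.14 from T- and NK-like cells.

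Irf7 was higher in TKO in 3 myeloid classes and lower in epithelial-like cells, with differences of -1.32 from neutrophil-like, -1.76 from dendritic-like and -1.03 from macrophage- and monocyte-like cells. Zbp1 was also lower in epithelial-like cells, by -1.5 against dendritic-like, -1.22 against macrophage- and monocyte-like and -0.701 against T- and NK-like cells. Oasl1 was higher in TKO dendritic-like cells and lower in TKO macrophage- and monocyte-like cells (-2.28).

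Xaf1 was lower in TKO T- and NK-like cells, by -0.48 against neutrophil-like, -0.979 against dendritic-like and -0.744 against macrophage- and monocyte-like cells. In fibroblast-like cells Rtp4 was lower in TKO, by -0.628, -0.979 and -0.961 against the same 3 classes. Ddx58 was lower there by -0.949 against dendritic-like and -0.477 against T- and NK-like cells. With the highest cell of each gene left out of each library, the groups overlapped for Xaf1 in T- and NK-like cells, Rtp4 and Oas1a in fibroblast-like cells and Oasl1 in macrophage- and monocyte-like cells.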

How the results depend on the processing

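Each group had 2 libraries, with 26 to 512 cells of a tested class in each, which limits the precision. Members called after adjustment numbered 0 in every class, and stayed at 0 with DESeq2 size factors, with the members kept among the clustering genes, at clustering resolution 2, with a low-UMI neutrophil cluster put back and, chosen after seeing the data, with plasmacytoid cells put in or the highest cell of each gene left out. That last setting put 19 members in dendritic-like cells and 10 in macrophage- and monocyte-like cells higher at an unadjusted p under 0.05, and 0 lower in the latter. The log2 ratio of the summed level was then 1.06 and 0.80 in these classes, and the change of Rsad2 in neutrophil-like cells was -0.0069. Leaving out the highest cell takes more from DKO in dendritic-like and macrophage- and monocyte-like cells, where DKO has fewer cells. Epithelial-like cells numbered 34 and 88 in DKO and 52 and 26 in TKO. There 0 members were higher and 3 lower at an unadjusted edgeR p under 0.05 in that setting. Without the low-count filter 9 members were called in dendritic-like and 5 in macrophage- and monocyte-like cells (236 and 205 genes in all, against 3 and 2), and 6 were lower at an unadjusted p under 0.05 in the latter; the cause was not tested. DESeq2 called 2 members in macrophage- and monocyte-like cells, among 38 genes in all. It was not run on the difference between classes. The labels do not say that replicate numbers mark pairs. As a block the replicate number gave 1 called member in dendritic-like cells (Ifi44, among 39 genes in all) and 0 in the other 5 classes. Over pairs of same-numbered libraries the deviations correlated at -0.045 to 0.33 by class.

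Leaving out 1 library at a time gave 0 to 4 members in neutrophil-like cells, 0 to 1 in dendritic-like, 0 to 1 in macrophage- and monocyte-like cells, and 0 to 2 for the difference between dendritic- and neutrophil-like cells. Members at an unadjusted p under 0.05 in macrophage- and monocyte-like cells numbered 3 to 9 higher and 1 to 5 lower. The log2 ratio of the summed level ran from -0.22 to 0.99 in neutrophil-like, 0.65 to 0.77 in dendritic-like, 0.024 to 0.70 in macrophage- and monocyte-like and -0.59 to 0.91 in epithelial-like cells. In neutrophil-like cells the log2 change ran from -0.77 to 1.82 for Rsad2, -0.15 to 0.54 for Isg15, -0.32 to 0.69 for Trim30a and -0.38 to 1.24 for Ifit1; it turned negative for all 4 without DKO replicate 1 (-0.77, -0.15, -0.32 and -0.38) and without TKO replicate 2 (-0.41, -0.13, -0.18 and -0.09). The difference in the share of high dendritic-like cells was 11.6 points at 5 UMIs, 0.87 points at 20 UMIs and 10.9 points without thinning, against 6.28. Of 335 values of named members under alternatives, 312 kept direction and side of the threshold, 14 passed it and 9 changed sign.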
